A study of Mus musculus with 4 samples.

Results

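The cytosolic ribosomal protein genes were taken as every gene whose symbol begins with Rpl or Rps and a number, with Rplp0, Rplp1, Rplp2 and Rpsa, which gave 87 of the 27998 genes counted. Of these, 53 carry symbols of large-subunit proteins (Rpl and Rplp) and 34 of small-subunit proteins (Rps and Rpsa). The symbols also caught 10 paralogs and look-alikes (Rpl3l, Rpl6l, Rpl7l1, Rpl10l, Rpl22l1, Rpl36al, Rpl39l, Rps27l, Rps27rt and Rps19bp1), which left 77 other members. One of the look-alikes, Rps19bp1, is named for binding Rps19 and is not itself a ribosomal protein. The rule left out 16 pseudogene symbols and 10 symbols of the S6 kinase family, and it missed genes that code for ribosomal proteins under other names, such as Fau and Rack1 (listed as Gnb2l1). Rpl10l had no UMI in any filtered cell. In filtered cells 86 members were detected in each of 3 libraries, and 84 members in the control uninjured library.

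Each cytosolic ribosome joins a small subunit, which reads the messenger RNA, to a large subunit, which forms the peptide bonds. Almost every ribosomal protein is present once per ribosome, the stalk proteins Rplp1 and Rplp2 being the exception. Their messenger RNAs are among the most abundant in most cells, and many of them start with a C and a run of pyrimidines, the terminal oligopyrimidine tract, through which mTOR signalling sets how strongly they are translated. Such messages can therefore be present without being translated, so RNA levels of these genes are not a measure of ribosomes made.

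The cells came from hindlimb tissue of mice that had received a burn on the back, covering 30% of the body surface, and a cut through the left Achilles tendon; tissue was taken at day 7. Both limbs therefore came from burned mice. The 4 groups were the injured left and uninjured right limb of mice homozygous for the slie allele of the collagen receptor gene Ddr2 (Ddr2 slie/slie) and of their littermate controls, whose Ddr2 genotype beyond that name, age and strain were not given in the sources used here. Tissue of 2 mice was pooled in each group and gave 1 library, so no difference between groups could be tested. Every interval below is at 95% and covers counting error only. Transcripts were counted as UMIs (unique molecular identifiers, 1 for each captured molecule). A share below is the percent of the UMIs of a library, population or cell.

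The start of the transcript is a feature that the choice by symbol did not use. RefSeq promoter sequences (GRCm38.p6) were at hand for 66 of the 87 members, with 78 annotated starts. A C followed by at least 4 pyrimidines at the annotated start stood at 14 of the 78 starts (17.9%), against 2.51% of 32851 starts of all genes. A start annotated a few bases away hides such a tract. The 6 starts below belong to members that the results turn on, with Rps6, a small-subunit protein and substrate of the S6 kinases, as a reference. Each shows 40 bases before and 20 bases from the start, with the tract in capitals where the letters match.
Rps27: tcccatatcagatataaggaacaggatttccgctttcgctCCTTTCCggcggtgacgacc
Rps27rt: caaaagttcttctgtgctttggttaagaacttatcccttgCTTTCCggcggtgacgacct
Rpl15: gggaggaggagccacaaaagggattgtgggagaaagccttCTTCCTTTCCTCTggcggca
Rps6: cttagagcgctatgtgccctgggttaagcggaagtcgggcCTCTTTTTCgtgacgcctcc
Rps9: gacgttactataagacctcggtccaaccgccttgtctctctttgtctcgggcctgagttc
Rplp0: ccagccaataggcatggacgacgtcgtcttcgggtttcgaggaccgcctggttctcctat
They lie at chr3:90213629-90213688 (Rps27, minus strand), chr9:114982720-114982779 (Rps27rt, minus), chr14:18270967-18271026 (Rpl15, minus), chr4:86857348-86857407 (Rps6, minus), chr7:3704001-3704060 (Rps9, plus) and chr5:115559427-115559486 (Rplp0, plus). Rps27 and its retrotransposed relative Rps27rt carry the same ggcggtgacgacc after the tract but different bases before it. Over the whole 300-base window (250 bases before and 50 after the start, both strands), CCGGAAG, a core bound by ETS factors, was present at 27 of the 78 starts (34.6%, against 8.86% of all starts). AAGATGGC, a YY1-type element, was present at 8 (10.3% against 2.75%), and TATAAA at 7 (8.97% against 13.6%). The first and second of these motifs can overlap by the letters AAG.

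After a filter on genes and mitochondrial UMIs, 751 cells remained in control injured, 246 in slie/slie injured, 60 in control uninjured and 184 in slie/slie uninjured, with 242888 to 4032783 UMIs a library. The median cell held 1218 to 1641 UMIs in 3 libraries and 4841 in slie/slie uninjured. Hemoglobin took 1.15% to 10.1% of the UMIs. Cells with under 0.5% mitochondrial UMIs made up 50.5% of control injured and 61.8% of slie/slie injured cells, against 5% and 12% in the uninjured limbs. The deepest 3 cells held 33.9% of the UMIs of the control uninjured library and 20.4% of those of slie/slie injured. Libraries shared 1 barcode before the filter and none after it.

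Ribosomal protein transcripts took a similar part of the message in all 4 libraries. They made up 14.2% of UMIs in control injured (14.2 to 14.3), 15.6% in slie/slie injured (15.5 to 15.7), 13.6% in control uninjured (13.4 to 13.7) and 15.1% in slie/slie uninjured (15.01 to 15.14). The slie/slie share was 1.10-fold that of controls in injured limbs (1.09 to 1.10) and 1.11-fold in uninjured limbs. The injured share was 1.05-fold the uninjured one in controls and 1.03-fold in slie/slie. These ratios lie close to 1 and depended on which cells and which other transcripts entered the total. Without hemoglobin and mitochondrial UMIs the 4 shares were 15.4%, 16.7%, 15.5% and 15.8%, and the control injury ratio became 0.996. The uninjured genotype ratio went to 0.986 in cells with at least 500 genes and the slie/slie injury ratio to 0.981 without the 3 deepest cells of each library. The genotype ratio in injured limbs stayed above 1 in each set of filtered cells tried, and was 0.844 over all deposited barcodes.

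The spread between cells of a library was far wider than the spread between libraries. The median cell of control injured held 12.1% (quartiles 5.75 and 18.8), and single cells ran from 0.129% to 50.4%. Slie/slie injured cells had a median of 13.3% and a range of 0.148% to 43.0%. In control uninjured the median was 10.7% and the range 0.36% to 27.3%, and in slie/slie uninjured 13.9% and 1.15% to 46.2%.

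Much of that spread followed cell populations, which were clustered without the ribosomal protein genes. Keratinocyte-like cells (led by keratin genes) held the highest summed share of the populations of at least 20 cells: 25.3% for control injured and 26.6% for slie/slie injured. A mesenchymal-like population with few UMIs per cell (cluster 0, led by H19, Mest and Cthrc1) held 24.5% in the control injured library and 19.6% in the slie/slie one. A deeper mesenchymal-like population (cluster 1, led by Col11a1 and Fbn2) held 12.3% in control injured. Cycling mesenchymal-like cells, led by Top2a and Mki67, lay between them at 17.5% in control injured and reached 22.9% in slie/slie injured. Dendritic-like cells held 18.6% in control injured, endothelial-like cells 17.5%, monocyte or macrophage-like cells 14.5% (cluster 4) and 13.7% (cluster 12), and pericyte or smooth muscle-like cells 14.7%.

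At the other end stood the neutrophil-like cells. Their 2 clusters held 3.37% and 2.18% in control injured. Joined, 147 such cells held 2.90% (cell median 2.76%), against 14.9% in all other cells of that library. The 42 such cells of slie/slie injured held 1.88%, against 16.7% in the other cells. Cell totals were not low beside it: the median in these clusters lay between 1187.5 and 1673, near the library medians. Erythroid-like cells of control injured (24 cells, whose leading genes also included the T-cell genes Cd3g and Cd2) had a cell median of 0.654%. Hemoglobin took 84.8% of their UMIs, and without hemoglobin and mitochondrial UMIs their summed share was 15.8%. The neutrophil-like clusters of that library stayed at 3.38% and 2.18% on that total. Of the erythroid-like cells, 16 with under 0.5% mitochondrial UMIs had a median of 0.27% (median cell total 18332 UMIs). The other 8 had 18.4% (median cell total 3725.5 UMIs). The 15.8% is thus a sum over unlike cells and does not describe the cells richest in hemoglobin.

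**Figure D1:**
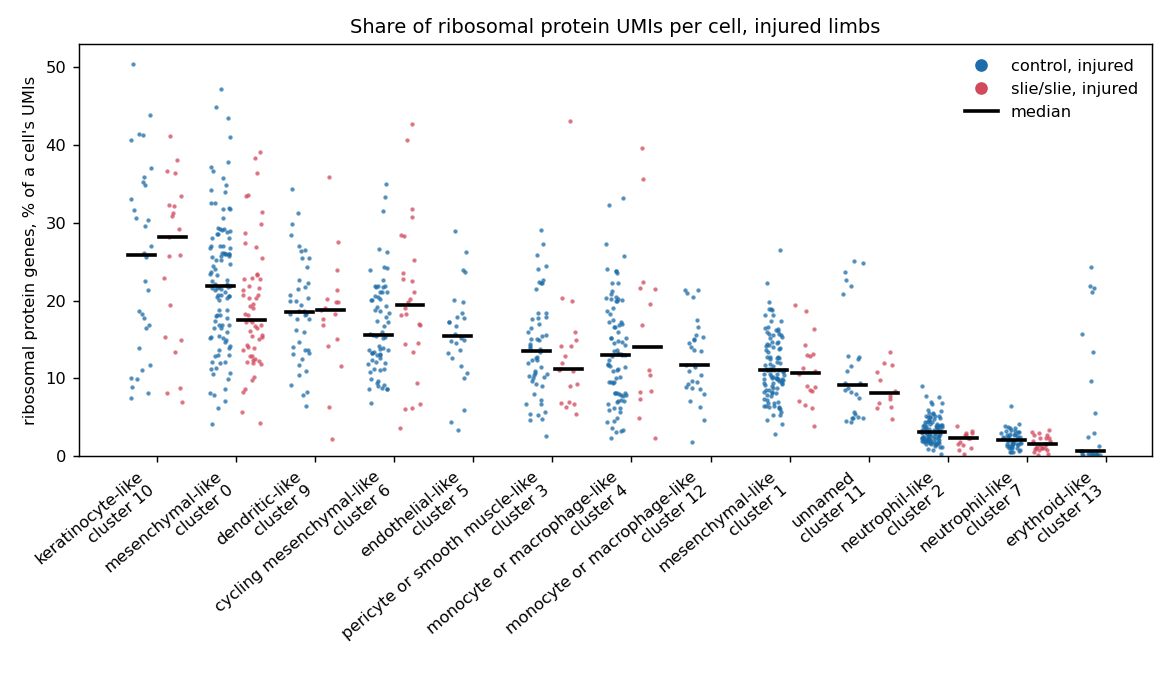
Ribosomal protein share of each cell's UMIs (y axis, percent) by cell population in the 2 injured libraries, with 1 point per cell and a bar at the median of each population of at least 10 cells. Medians of the neutrophil-like clusters lie between 1.61% and 3.08%, and those of keratinocyte-like cells are 25.8% and 28.1%.

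Within the 4 populations that had at least 20 cells in both injured libraries, the slie/slie share was higher than control in 2 and lower in the other 2. The cycling mesenchymal-like ratio was 1.31 (1.29 to 1.33) and the keratinocyte-like ratio 1.05 (1.03 to 1.07). The shallow mesenchymal-like ratio was 0.799 (0.783 to 0.815), and that of neutrophil-like cluster 7 was 0.796 (0.734 to 0.863). With a limit of 10 cells, chosen after the data were seen, 5 of 10 populations were higher. The populations thus had no common direction. Without the 3 deepest cells of each library the keratinocyte-like ratio was 0.774, and with coarser clusters (resolution 0.5) it was 0.912 and the shallow mesenchymal-like ratio 1.06. In the cycling population the deepest 3 cells held 49.0% of the UMIs in control and 65.9% in slie/slie.

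The share moved with mitochondrial content in several populations, but not in all. In control injured cluster 0, 81 cells with under 0.5% mitochondrial UMIs had a median share of 23.7%, against 15.2% in the other 26 cells. In the cycling population the medians were 20.5% and 13.3% in control and 21.8% and 11.9% in slie/slie. Dendritic-like cells had 20.8% and 16.03% in control and 19.8% and 15.5% in slie/slie. Keratinocyte-like cells of control injured had 27.0% and 16.4%, the second from 5 cells. Cluster 0 of slie/slie injured showed less of this, with 17.8% and 16.8%. In control injured, monocyte or macrophage-like cluster 4 had 12.5% and 13.1%, and neutrophil-like cluster 2 had 3.09% and 3.07%. Neutrophil-like cluster 7 of slie/slie injured had 1.51% and 1.95%, the second from 3 cells. The median mitochondrial percent of cluster 0 was 0.0232 in control and 0.227 in slie/slie, and without the cells of low mitochondrial content its genotype ratio was 0.983. The part of mitochondrial content in the genotype differences was not tested.

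Large-subunit and small-subunit messages kept nearly the same balance. The ratio of large-subunit to small-subunit UMIs was 1.34 in control injured, 1.35 in slie/slie injured, 1.26 in control uninjured and 1.30 in slie/slie uninjured. Dendritic-like cells had 1.17 (control injured) and 1.16 (slie/slie injured), below the 1.33 and 1.35 of keratinocyte-like cells. Neutrophil-like cluster 2 had 1.16 in control injured (1.09 to 1.23). The 8 members with the most UMIs together held 19.6%, 19.5%, 19.3% and 19.8% of the ribosomal protein UMIs of control injured, slie/slie injured, control uninjured and slie/slie uninjured. The UMIs were thus spread over many members in each library.

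Single members were compared on 2 scales, CPM (UMIs scaled to a common total per library) and percent of the ribosomal protein UMIs, the second of which takes out a shift of the whole group. On the second scale 1 of 85 members with at least 20 UMIs passed 1.5-fold between genotypes in injured limbs, where 27.3% of all genes did. The same comparison in uninjured limbs had 2 of 83, against 42.4% of all genes. Injured against uninjured limbs had 9 of 85 in controls, against 57.6% of all genes, and 2 of 83 in slie/slie, against 42.7%. Most genes have far fewer UMIs than the members. At a limit of 1000 UMIs, 0 of 80, 0 of 69, 7 of 80 and 2 of 79 members passed 1.5-fold. Of all genes at that limit 13%, 21.2%, 49.4% and 33.9% passed. These backgrounds include the members, which were 80 of 718, 69 of 165, 80 of 591 and 79 of 271 genes. Within 1.25-fold lay 80 of 85 members for genotype in injured limbs, 69 of 83 for genotype in uninjured limbs, 60 of 85 for injury in controls and 56 of 83 for injury in slie/slie. On CPM, 3, 3, 10 and 3 members passed 1.5-fold, with backgrounds of 26.8%, 41%, 57.4% and 42.9%.

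On CPM the median log2 ratio of the members was 0.12 for genotype in injured limbs, 0.16 for genotype in uninjured limbs, 0.06 for injury in controls and 0.09 for injury in slie/slie. The medians of all genes were 0.04, -0.02, -0.10 and -0.02 in the same order. In injured limbs 79 of 85 members were above 0 for genotype on CPM, and the other 3 comparisons had 62 of 83, 50 of 85 and 54 of 83. On the scale of ribosomal protein UMIs the member medians were -0.01, 0.00, -0.01 and 0.04, which the division by the members' own sum holds near 0.

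**Figure D2:**
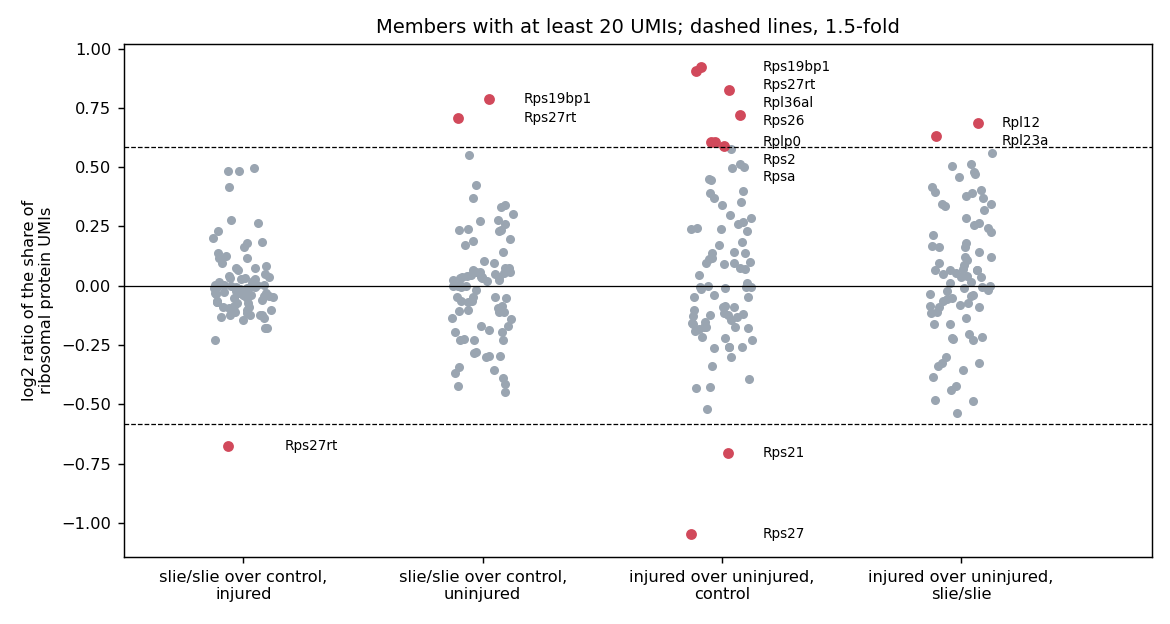
Log2 ratio of each member's percent of ribosomal protein UMIs (y axis) in the 4 comparisons (x axis, points spread sideways for sight), with dashed lines at 1.5-fold. The members past 1.5-fold are named, 1, 2, 9 and 2 in the 4 comparisons, and Rps27 lies lowest in the control injury comparison.

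Between genotypes in injured limbs, the members highest in slie/slie, ordered by the lower bound of the ratio, were Rpl15, Rpl29, Rplp0, Rpl35 and Rps18. Rpl15, a large-subunit protein (14: 18267823 to 18271391, minus strand, mm10), made up 0.56% of ribosomal protein UMIs in control injured, 0.79% in slie/slie injured, 0.76% in control uninjured and 0.78% in slie/slie uninjured. The control injured library was thus the low one, and the other 3 lay together. The slie/slie ratio was 1.40-fold in injured limbs (1.31 to 1.49) and 1.03-fold in uninjured limbs (0.896 to 1.18). By population, Rpl15 made up 0.49% in control and 0.75% in slie/slie in mesenchymal-like cluster 1, 0.46% and 0.75% in monocyte or macrophage-like cluster 4, and 0.57% and 0.84% in cycling mesenchymal-like cells. In dendritic-like cells it made up 0.48% and 0.75%, and in keratinocyte-like cells 0.498% and 0.872%. Shallow mesenchymal-like cells did not show this, with 0.57% and 0.55%. Rpl15 had been chosen from the summed libraries, of which these cells are a part, so a shared sign is partly built in. The slie/slie values came from 18 cells in cluster 1, 14 in cluster 4 and 17 dendritic-like cells. In these the deepest 3 cells held 61.7%, 65.8% and 58.8% of the UMIs.

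Rplp0, which anchors the stalk of the large subunit (5: 115559467 to 115563727, plus strand), made up 1.24%, 1.65%, 0.81% and 1.19% of ribosomal protein UMIs in control injured, slie/slie injured, control uninjured and slie/slie uninjured. It was 1.33-fold higher in slie/slie in injured limbs (1.28 to 1.40) and 1.47-fold higher in uninjured limbs (1.29 to 1.67). Its stalk partners Rplp1 and Rplp2 had log2 ratios of -0.05 and -0.02 between genotypes in injured limbs. As counted, Rplp0 thus stood apart from its 2 partners. With near-identical copies added (described below), the gap was smaller, at 0.15 for Rplp0, -0.05 for Rplp1 and -0.03 for Rplp2.

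The difference in Rplp0 came with that of a near-identical copy, a comparison made after the data were seen. Gm8730 is a processed pseudogene of Rplp0 on chromosome 8 that is counted as a gene of its own. Its 954 aligned bases differ from Rplp0 at 12 positions (98.7% identity). The stretch below, positions 390 to 449 counted from 1 at the first aligned base, carries 3 of these substitutions in capitals (A390G, A393G and A447T, the Rplp0 base first) and is shown because it holds the most of them in a short run. G558C, T603G, A696G and A784G lie nearer the 3′ end, and which positions the counted reads covered is not seen in the counts.
Rplp0: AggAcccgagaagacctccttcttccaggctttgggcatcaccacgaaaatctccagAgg
Gm8730: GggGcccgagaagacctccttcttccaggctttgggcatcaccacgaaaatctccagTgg
Gm8730 had 1487 UMIs in control injured, 8 in slie/slie injured, 48 in control uninjured and 51 in slie/slie uninjured. Of the UMIs of Rplp0 and Gm8730 together, the copy took 17.3%, 0.306%, 15.2% and 2.52%. With the copy added, the log2 ratio of Rplp0 between genotypes was 0.15 in place of 0.42 in injured limbs and 0.35 in place of 0.55 in uninjured limbs. The injury ratios hardly moved, 0.64 in place of 0.61 in controls and 0.44 in place of 0.47 in slie/slie.

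The copy's part was not even across the control injured cells. It took 22.3% in shallow mesenchymal-like cells, 29.9% in cycling mesenchymal-like cells, 29.8% in pericyte or smooth muscle-like cells and 31.0% in dendritic-like cells. It took 2.93% in keratinocyte-like cells and 2.43% in monocyte or macrophage-like cluster 12. For slie/slie injured it was at most 1.22% in any population. The 2 mice pooled in a library cannot be told apart, and how reads that match both places equally were counted was not given in the sources used here.

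Rpl29, another large-subunit protein, showed the same dependence on copies. It made up 0.36%, 0.51%, 0.39% and 0.41% of ribosomal protein UMIs in the same order of libraries, a log2 genotype ratio of 0.50 in injured limbs. Its 4 near-identical copies held 2756, 619, 164 and 662 UMIs, most of them in Gm10709, which is identical to it over 204 bases. With the copies added the log2 ratio was 0.10. Rps18 went from 0.28 to 0.18 in the same comparison, and Rpl15 stayed at 0.48. Of the 87 members, 25 had at least 1 such copy among the counted genes, and each ratio of those members carries this uncertainty.

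**Figure D3:**
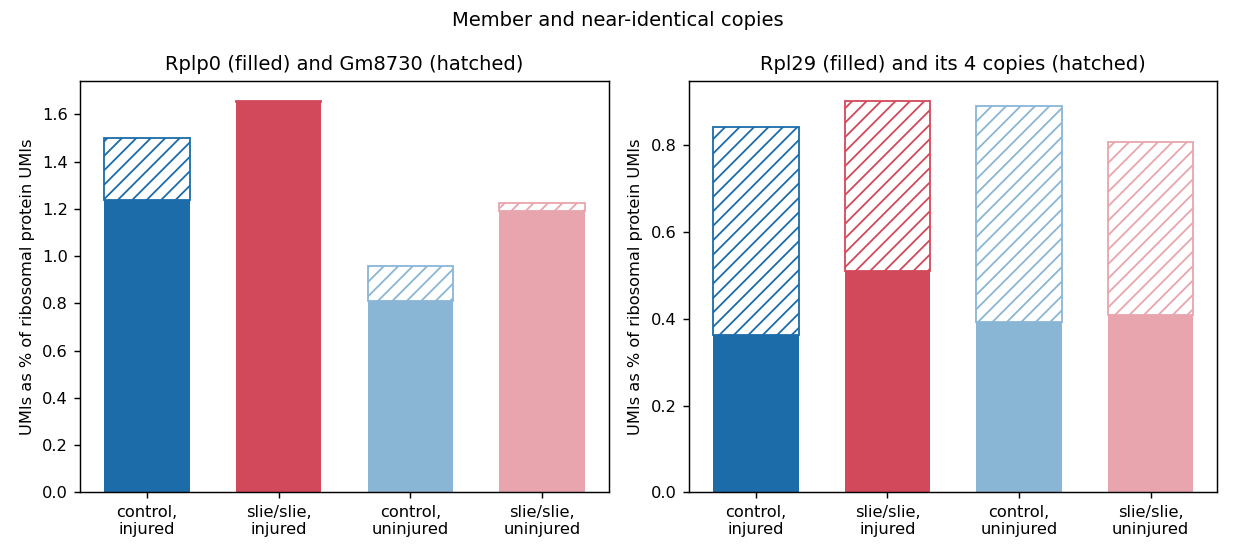
UMIs as a percent of ribosomal protein UMIs (y axis) in the 4 libraries, for Rplp0 with its copy Gm8730 (left) and Rpl29 with its 4 copies (right), the copies hatched on top of the member. The copy of Rplp0 is barely seen in slie/slie injured, and the summed Rpl29 bars are closer in height than the filled ones.

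Injury in controls gave the members farthest from 1. Rps27, a small-subunit zinc-binding protein (3: 90212522 to 90213651, minus strand), made up 0.95% of ribosomal protein UMIs in control injured, 1.05% in slie/slie injured, 1.97% in control uninjured and 1.47% in slie/slie uninjured. Both injured libraries lay below both uninjured ones. It was 2.07 times lower in injured than uninjured limbs in controls (1.90 to 2.24) and 1.40 times lower in slie/slie (1.31 to 1.49). With every cell given equal weight the slie/slie ratio was 1.17, so that its direction turned. Rps21 (2: 180257377 to 180258445, plus strand) had the same order, at 1.52%, 1.42%, 2.47% and 1.86%. It was 1.63 times lower in injured limbs in controls (1.51 to 1.75) and 1.31 times lower in slie/slie (1.24 to 1.38). With cells weighted equally the control ratios of Rps27 and Rps21 were 0.695 and 0.691, inside 1.5-fold.

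Higher in injured limbs of controls were Rps2, Rps26, Rpsa, Rplp0 and Rpl36al. Rps2 (17: 24718116 to 24721929, plus strand) made up 1.74% in control injured, 1.84% in slie/slie injured, 1.14% in control uninjured and 1.53% in slie/slie uninjured. Rpsa, which also serves at the cell surface as a laminin receptor (9: 120127689 to 120132369, plus strand), made up 1.55%, 1.76%, 1.03% and 1.24%. Both were higher in each injured library than in either uninjured one. The control injury ratios were 1.52-fold for Rps2 (1.37 to 1.69), 1.65-fold for Rps26 (1.48 to 1.83), 1.5-fold for Rpsa (1.35 to 1.68) and 1.77-fold for Rpl36al (1.46 to 2.18). In slie/slie they were 1.20-fold, 1.27-fold, 1.43-fold and 1.29-fold. With cells weighted equally the control ratios of Rps2, Rps26 and Rpsa were 1.02, 1.15 and 1.16.

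In slie/slie, Rpl12 and Rpl23a, both large-subunit proteins, were the members past 1.5-fold, at 1.61-fold (1.45 to 1.79) and 1.55-fold (1.41 to 1.70). With cells weighted equally they were 1.45-fold and 1.35-fold, and Rpl23a was 1.47-fold without the 3 deepest cells, all inside 1.5-fold. In controls the ratios were 1.41-fold and 1.29-fold. Rps29 went the other way, with 2.07% in control injured, 1.90% in slie/slie injured, 2.34% in control uninjured and 2.76% in slie/slie uninjured.

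The order of Rps27, Rps21, Rps2 and Rpsa by limb was also present inside populations that both limbs held, in sums of 13 to 54 cells. These members had been chosen from the summed libraries, of which these cells are a part. In control uninjured, 20986 of the 32937 ribosomal protein UMIs came from 17 endothelial-like cells and 5455 from 13 pericyte or smooth muscle-like cells. A shared sign is thus partly built in. The deepest 3 cells held 65.2% of the UMIs of the pericyte or smooth muscle-like cells of control uninjured, 67.9% of those of slie/slie injured and 62.9% of the endothelial-like cells of control uninjured. In pericyte or smooth muscle-like cells Rps27 made up 0.81% in control injured against 1.65% in control uninjured, and 0.91% in slie/slie injured against 1.29% in slie/slie uninjured. Rps21 made up 1.29% against 1.82% and 1.34% against 1.87%. Rps2 made up 1.90% against 1.32% and 1.85% against 1.5%, and Rpsa 1.68% against 1.16% and 1.57% against 0.98%. Each of these differences had the sign seen in the summed libraries, and the intervals of the 2 slie/slie values of Rps2 overlapped.

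Endothelial-like cells could be set side by side in 3 libraries. Rps27 made up 1.08% in control injured (26 cells), 2.12% in control uninjured (17 cells) and 1.90% in slie/slie uninjured (49 cells). Rps21 made up 1.68%, 2.84% and 2.18%, and Rpsa 1.46%, 0.92% and 0.87% in that order. The uninjured libraries of both genotypes thus lay on the same side of the injured one. Depth moved with limb here, at a median of 17632 UMIs in control injured, 1635 in control uninjured and 4071 in slie/slie uninjured, and its part was not tested.

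**Figure D4:**
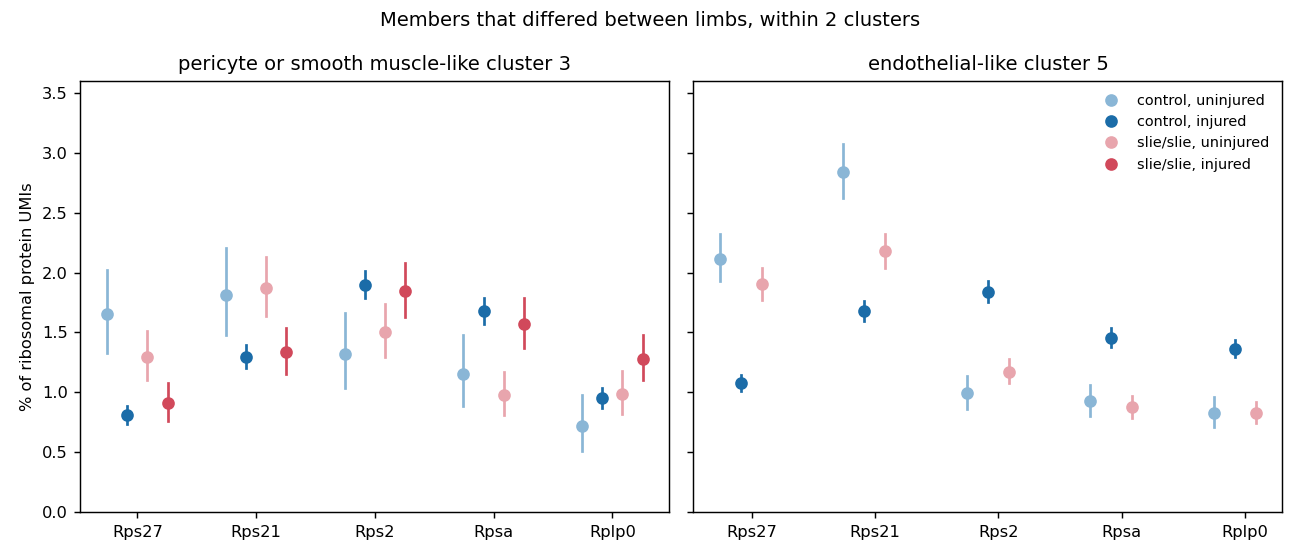
Percent of ribosomal protein UMIs (y axis) of 5 members in pericyte or smooth muscle-like and endothelial-like cells, by library, with 95% counting intervals. Rps27 and Rps21 lie lower, and Rps2 and Rpsa higher, in the injured libraries than in the uninjured library of the same genotype.

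Neutrophil-like cells differed from other cells not only in how much ribosomal protein RNA they held but in its makeup. The members named here were chosen after their values were seen, and the cells were grouped without them. In control injured, 12 of 79 measured members were at least 1.5-fold higher and 28 at least 1.5-fold lower, as a percent of ribosomal protein UMIs, in these cells than in the other cells of the library. Slie/slie injured had 15 higher and 11 lower of 42. To enter these counts, a gene needed 20 UMIs in the neutrophil-like cells, either seen there or predicted from its percent in the other cells. Those cells of slie/slie injured held only 1437 ribosomal protein UMIs, so scarcer members could enter only when they were high. The numbers of higher members and of members entered are thus partly set by this rule, most of all in slie/slie injured. Of all genes measured by the same rule, 88.6% were higher and 6.3% lower in control injured, and 91.4% and 4.69% in slie/slie injured, since on this scale a low total of ribosomal protein UMIs raises every other gene.

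Rps9, a small-subunit protein (7: 3703993 to 3706897, plus strand) whose start is printed above, made up 6.19% of ribosomal protein UMIs in neutrophil-like cells of control injured, from 400 UMIs, against 1.25% in the other cells. That was 4.98-fold (4.49 to 5.51). In slie/slie injured it made up 5.22%, from 75 UMIs, against 1.07%, or 4.93-fold (3.87 to 6.21). As a level it was not raised: its CPM was 1793 against 1857 in control injured and 980 against 1792 in slie/slie injured. In control injured, neutrophil-like cells thus had about as much Rps9 message per UMI as other cells, with little of most other members.

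As a percent of ribosomal protein UMIs, Rps27 was 3.31-fold higher in neutrophil-like cells of control injured (2.86 to 3.82, from 198 UMIs). In those of slie/slie injured it was 5.51-fold higher (4.35 to 6.91, from 79 UMIs). As a level Rps27 was not raised: its CPM was lower in these cells than in the other cells of both libraries. Rps29, Rpl10, Rpl41, Rpl37, Rps16, Rpl17 and Rps12 were also at least 1.5-fold higher in both libraries. Rpl10, Rpl17, Rps9 and Rps27 were too scarce in the other cells of slie/slie injured to enter its counts unless high in neutrophil-like cells. The direction of these members in that library was thus partly set by the entry rule given above. Among ribosomal proteins outside the symbol rule, Fau, which is made as a fusion with a ubiquitin-like protein, had UMIs equal to 13.3% of those of the members against 2.00% in other cells. In slie/slie injured these were 17.7% and 1.76%. Its CPM was higher as well, 3841 against 2981 and 3333 against 2936.

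Rps20, Rplp0, Rpl13, Rps2, Rpsa and Rps4x were lower. Rps4x, the X-linked form of a small-subunit protein (X: 102184941 to 102189394, minus strand), made up 0.418% against 1.28% in control injured, 2.95 times lower. In slie/slie injured it had 2 UMIs in these cells, a ratio of 0.142 (0.0293 to 0.416). Rplp0 was 2.37 times lower in control injured and 2.39 times lower in slie/slie injured. The 2 neutrophil-like clusters were not alike in it. In control injured it made up 0.354% in cluster 2 and 0.877% in cluster 7. In slie/slie injured it had 0 UMIs in cluster 2 and 9 in cluster 7 (1.03%). The CPM of Rplp0 was 148 against 1858 and 118 against 2779. Rps2 was 1.79 and 2.04 times lower, and Rpl13 2.14 and 2.18 times lower.

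**Figure D5:**
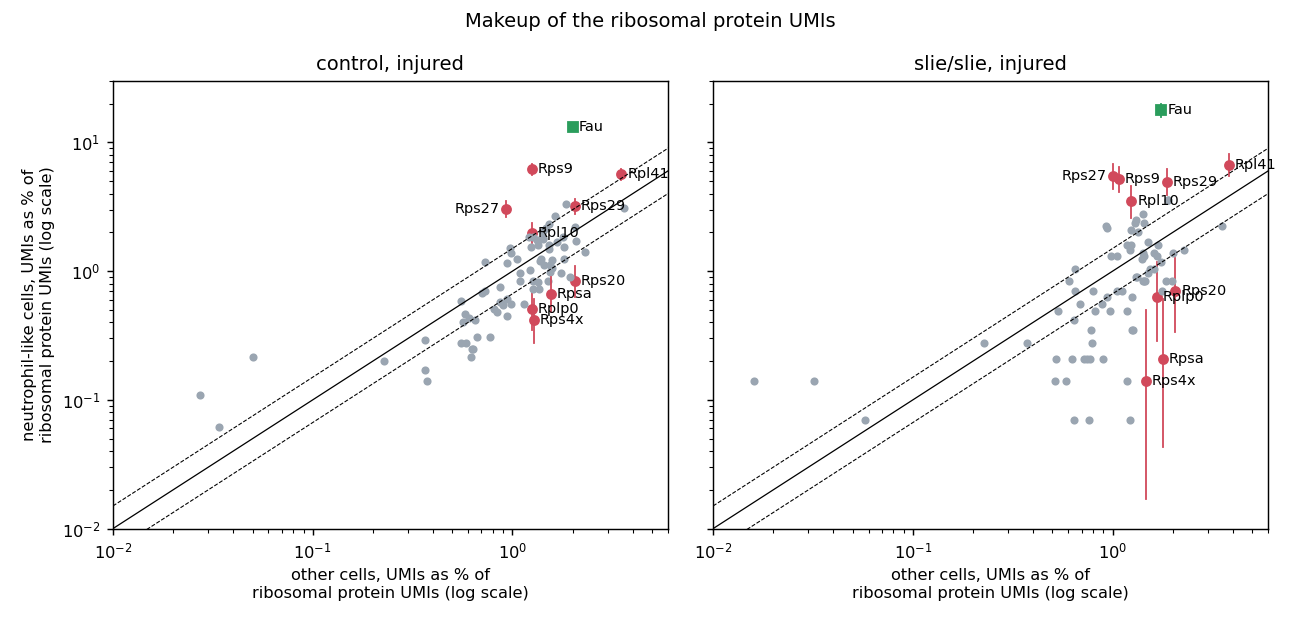
UMIs of each member as a percent of ribosomal protein UMIs in neutrophil-like cells (y axis) against the other cells of the same library (x axis), both on log scales, with 95% counting intervals for named genes, lines at equality and 1.5-fold, and Fau as a square. Members without a UMI in either set are not drawn. Rps9, Rps27 and Fau lie above the lines in both libraries, and Rps4x, Rplp0 and Rps20 below.

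Other populations differed in fewer members. In dendritic-like cells Rplp1 had ratios of 0.585 in control injured (0.515 to 0.662) and 0.548 for slie/slie (0.432 to 0.686). Monocyte or macrophage-like cluster 12 of control injured had Rps29 at 3.91% against 1.99% in the other cells. Cluster 4, the other monocyte or macrophage-like population, had Rpl12 ratios of 0.645 (0.575 to 0.722) for control injured and 0.442 (0.241 to 0.745) for slie/slie injured.

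Among the paralogs, Rpl36al and Rpl22l1 had the most UMIs, 3153 and 2095 in control injured. Rpl36al (12: 69182731 to 69184083, minus strand) was lower than in other cells in shallow mesenchymal-like cells, with ratios of 0.664 for control injured and 0.594 for slie/slie injured. It was 1.57-fold higher in monocyte or macrophage-like cluster 4 of control injured. In that cluster of slie/slie injured (14 cells) it was not among the members past 1.5-fold. Rpl22l1, the paralog of Rpl22, had ratios of 1.26, 1.72, 1.87 and 1.73 in pericyte or smooth muscle-like cells of control injured, slie/slie injured, control uninjured and slie/slie uninjured. All 4 libraries had it higher in those cells than in the others.

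Rps27l, a p53-responsive paralog of Rps27, had 1305, 357, 68 and 307 UMIs in the same library order. The remaining paralogs and look-alikes had fewer. Rpl7l1 had 298, 91, 15 and 72, Rps19bp1 197, 52, 5 and 51, and Rpl6l 47, 11, 2 and 7. Rpl39l, a paralog best known from the testis, had 25, 9, 0 and 3. Of the 25 in control injured, 23 came from 3 of the 67 cycling mesenchymal-like cells. Rpl3l, the muscle form of Rpl3, had 5, 3, 0 and 7. Rps27rt, with 162, 27, 4 and 40 UMIs, was the member past 1.5-fold between genotypes in injured limbs, at a ratio of 0.626 (0.403 to 0.938). It was not past it with cells weighted equally (0.86) or without the 3 deepest cells (0.75). It is identical to Rps27 over 341 bases, so its UMIs cannot be set apart from those of Rps27 with confidence.

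Fau and Gnb2l1, the scaffold protein of the small subunit, lie outside the symbol rule. Their CPM ratios between genotypes in injured limbs were 0.980 (0.941 to 1.02) and 1.09 (1.02 to 1.17). Injured against uninjured limbs, Fau had 1.02 in controls and 0.895 in slie/slie, and Gnb2l1 1.57 and 1.45. Gnb2l1 was thus above 1 by limb in both genotypes, and Fau close to 1.

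Genes of the wider translation machinery were read on CPM from lists. Between genotypes in injured limbs 0 of 12 elongation factors passed 1.5-fold, where 26.8% of all genes did, and the median log2 ratio was 0.18. In the control injury comparison 4 of 11 were higher and 1 lower, with a median of 0.48, where 26% of all genes were higher and 31.4% lower. In slie/slie 5 of 11 were higher and none lower, with a median of 0.56, against 20% and 22.8%. Eif5a was 2.20-fold higher in injured control limbs (1.79 to 2.73) and 1.75-fold higher in slie/slie (1.58 to 1.93), and Eef1b2 1.53-fold and 1.56-fold. Eef1a1, which delivers aminoacyl-tRNA, had 0.852-fold and 1.17-fold.

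Ribosome assembly factors were higher for 12 and lower for 6 of 49 in the control injury comparison (median log2 0.21), and higher for 11 and lower for 3 of 45 in slie/slie (0.31). The parts that were higher lie close to those of all genes (26% in controls and 20% in slie/slie). The parts that were lower lie below those of all genes (31.4% and 22.8%). Of the 3 assembly genes with the most UMIs, the nucleolar chaperone Npm1 was 2.07-fold and 1.54-fold higher, nucleolin (Ncl) had 0.959-fold (0.790 to 1.17) and 1.499-fold, and Nop10 1.05-fold in both. Initiation factors had medians of 0.13 and 0.32, with 8 higher and 3 lower of 37 in controls and 9 and 2 in slie/slie. Here too the higher part was near that of all genes and the lower part below it. Mitochondrial ribosomal proteins, which serve a separate ribosome, had medians of 0.14 and 0.07. The cytosolic members themselves had medians of 0.06 and 0.09 in these comparisons. Proliferation genes moved with limb too, with median log2 ratios of 2.15 in controls and 2.10 in slie/slie, and their part in these values was not tested.

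In neutrophil-like cells of control injured, elongation factors took 0.158% of UMIs against 0.622% in other cells, and assembly factors 0.0856% against 0.358%. Initiation factors took 0.537% against 0.667%. In slie/slie injured the 3 lists took 0.159%, 0.0693% and 0.685%. The lists that were low beside the members in these cells were therefore elongation and assembly, while initiation factors were nearer to their level elsewhere.

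Across 20 populations of at least 20 cells, most members followed the sum of the members closely. The median correlation of a member's log2 level with the sum of the members was 0.975 over 83 members, a description across populations that share libraries and depth. That sum includes the member itself, and the neutrophil-like clusters, low in most members, widen its range. No median over the other genes is given, so the value does not set the members apart from them. The lowest were Rps27rt at 0.481, Rps19bp1 at 0.609, Rpl7l1 at 0.618, Rps27 at 0.776 and Rps9 at 0.788. Of 4532 other genes ranked, those most like the summed members were Gnb2l1 (0.979), Serbp1 (0.975), Naca (0.970), Ppia (0.966) and Mrps25 (0.962).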

How the data were processed

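Raw UMI counts were deposited as 1 sparse matrix a library; per the file headers the authors ran Cell Ranger 5.0.1, and per the labels the build was mm10. Chemistry, annotation and the treatment of reads with several matches were not given in the sources used here. Cells were kept at 200 genes or more with mitochondrial UMIs at 20% or less. Cells of all libraries were clustered together, without integration, on 2000 variable genes that leave out the members (30 principal components, 15 neighbours, Leiden resolution 1), with Python 3.11.15, numpy 2.4.6, scipy 1.17.1, leidenalg 0.10.2 and scanpy 1.11.5. Names came from marker lists, with thresholds set after the data were seen. Scrublet called 0, 2, 14 and 4 doublets in control injured, slie/slie injured, control uninjured and slie/slie uninjured, which were kept. UMIs were summed per library or population, 1 count was added to each sum, and ratios have exact conditional binomial intervals and shares Clopper-Pearson intervals, at 95%. No p-values were computed, with 1 library a group. The method was tested on simulated data. Copies were genes that match at least 150 of a member's last 400 bases at 97% identity or more (blastn 2.17.0). Members, lists and rules were chosen with earlier results of these data known. Members named are the 8 with the most UMIs, the 5 highest and 5 lowest of each comparison (30 UMIs or more, ordered by the interval bound closest to 1), the stalk proteins, Rpsa, Rps27a and the paralogs; of lists, the 3 genes with the most UMIs. Others were chosen after their values were seen. Some genes that these rules name are not reported here.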

Additional observations from a re-analysis of the deposited data

Results flagged for a closer look

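The pseudogene symbols of the family, left out of the members, held 539 UMIs in control injured, 114 in slie/slie injured, 21 in control uninjured and 91 in slie/slie uninjured. Barcodes left out by the filter also held ribosomal protein UMIs, 0.658% of their UMIs in control injured, 0.723% in slie/slie injured, 6.12% in control uninjured and 2.27% in slie/slie uninjured. The copy Gm8730 of Rplp0, a gene outside the members, held 1487 UMIs in control injured, 8 in slie/slie injured, 48 in control uninjured and 51 in slie/slie uninjured.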

How the results depend on the processing

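No paired analysis was possible because each group has 1 library. Depth and cell number limit the control uninjured library (60 cells) most, and intervals leave out the spread between mice. The share ratios were 1.10 (genotype, injured), 1.11 (genotype, uninjured), 1.05 (injury, controls) and 1.03 (injury, slie/slie), and in this order they became as follows, with the cause of each shift not tested. Without hemoglobin and mitochondrial UMIs they were 1.08, 1.02, 0.996 and 1.05. With at least 500 genes a cell they were 1.07, 0.986, 0.999 and 1.08. With all barcodes they were 0.844, 1.23, 1.38 and 0.948. Without cells of low mitochondrial content they were 1.11, 0.986, 0.981 and 1.11. With equal weight to cells they were 1.08, 1.34, 1.18 and 0.95. Without the 3 deepest cells of each library they were 1.06, 1.17, 1.09 and 0.981. With at most 10% mitochondrial UMIs the second was 1.13 and the last 1.02. Without called doublets the second was 1.25 and the third 1.19. Within populations of injured limbs, the shallow mesenchymal-like ratio of 0.799 was 0.85 with equal weight, 0.765 without the deepest cells, 0.769 with at least 500 genes, 0.983 without cells of low mitochondrial content and 1.06 at resolution 0.5. The cycling ratio of 1.31 was 1.2, 1.51 and 1.19 with equal weight, without the deepest cells and without cells of low mitochondrial content, and 1.06 at resolution 0.5. The keratinocyte-like ratio of 1.05 was 1.0 with equal weight, 0.774 without the deepest cells and 0.912 at resolution 0.5. With 10 cells as the limit, 5 populations in place of 2 were higher in slie/slie. The counts of members past 1.5-fold (1, 2, 9 and 2) were 0, 0, 1 and 0 at 2-fold. Without a minimum count the first, second and last were 2, 4 and 5, and with equal weight 2, 9 and 6. With at least 50 UMIs the second was 1, on CPM the first was 3, and without cells of low mitochondrial content the last was 4. The subunit ratios were 1.38, 1.39, 1.31 and 1.34 without Rps27a and the paralogs, and with equal weight 1.38 and 1.33 in the injured and uninjured slie/slie libraries. The Rps27 injury ratio in slie/slie was 1.17 with equal weight, against 0.715.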
